A study of Mus musculus with 8 samples.

Results

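The Wnt ligands are secreted signalling proteins. The genes followed here are Wnt2, Wnt2b, Wnt4, Wnt5a, Wnt5b, Wnt6, Wnt7b, Wnt9a, Wnt10a and Wnt11, measured by every non-control probe that the array names for them. Probes were taken without use of their values, but the genes were chosen with earlier results of these data known. All 10 genes were on the array, with 13 probes among them, of 19757 genes in all with a current symbol. RNA was measured in manually microdissected mouse pancreatic epithelium, dorsal and ventral together, at e15.5. The Sox9 mutant group held 4 pools from Sox9fl/fl embryos that also carried Rosa26-CreER. The wild-type group held 4 pools from littermates with Rosa26-CreER alone, from crosses of a Sox9-flox line on a mixed FVB/N, C57Bl/6J and CD1 background with a C57Bl/6J Rosa26-CreER line. All dams, and so embryos of both genotypes, had received tamoxifen in corn oil at 6 mg per 40 g at e12.5. The study asked what Sox9 regulates at this stage, when the pancreatic cell types separate. Each pool joined 4 pancreata, which makes the replicate spread one of pooled embryos; whether pools of a genotype came from separate litters is not given. Rosa26 drives CreER in nearly all tissues, so deletion need not be limited to the epithelium.

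Wnt proteins are made as lipid-modified glycoproteins: Porcn attaches the lipid and Wls carries the ligand to the cell surface. A Wnt that binds a Frizzled receptor with Lrp5 or Lrp6 stabilises beta-catenin, which acts with TCF/LEF factors on target genes such as Axin2, while ligands such as Wnt5a and Wnt11 are known mainly for signalling without beta-catenin, through the planar polarity branch and Ror2. In the mouse pancreas, Wnt signals are known to act on growth of the progenitor epithelium, and ligands are made both by that epithelium and by the mesenchyme around it.

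Promoter sequence is shown for the ligand genes that passed the test, Wnt6 and Wnt4. A window of Wnt11, which did not pass it, is shown because it held searched motifs. Each sequence is the 250 bases before the RefSeq start on GRCm38.p6, in lower case, with capitals only where a searched motif was found. The Wnt6 window is chr1:74771642-74771891, plus strand, the Wnt4 window chr4:137277385-137277634, plus strand, and the Wnt11 window chr7:98834862-98835111, plus strand.
Wnt6: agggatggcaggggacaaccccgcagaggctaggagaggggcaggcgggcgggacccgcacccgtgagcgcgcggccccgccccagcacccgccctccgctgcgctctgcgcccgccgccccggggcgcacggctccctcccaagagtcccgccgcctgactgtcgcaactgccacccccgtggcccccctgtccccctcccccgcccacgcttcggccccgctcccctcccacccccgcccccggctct
Wnt4: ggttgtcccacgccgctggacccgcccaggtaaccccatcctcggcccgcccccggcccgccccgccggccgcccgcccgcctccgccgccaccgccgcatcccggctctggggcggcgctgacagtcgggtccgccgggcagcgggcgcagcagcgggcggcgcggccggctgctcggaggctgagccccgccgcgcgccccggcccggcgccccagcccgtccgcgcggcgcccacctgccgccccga
Wnt11: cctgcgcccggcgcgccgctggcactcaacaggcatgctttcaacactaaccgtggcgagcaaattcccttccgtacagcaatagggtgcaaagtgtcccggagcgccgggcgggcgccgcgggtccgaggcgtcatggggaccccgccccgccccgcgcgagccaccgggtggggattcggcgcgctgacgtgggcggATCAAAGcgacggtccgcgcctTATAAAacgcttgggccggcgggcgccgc

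The motifs were searched on both strands in these windows. ATTGTT, the core bound by SOX factors, was in 9.42% of all 32851 windows of this length, CTTTGAT, the core bound by TCF/LEF factors, in 3.21%, and TATAAA, the TATA box, in 12.4%. The Wnt6 and Wnt4 windows held none of these motifs. The Wnt11 window shown held a TCF core 51 bases and a TATA box 29 bases before the start. A second Wnt11 window (chr7:98838595-98838844) held none, and neither did those of Wnt2, Wnt2b and Wnt9a, which were not called. Of the Wnt5b windows, 1 held a TCF core and the others no motif. With so few called ligand genes and motifs this rare over all windows, whether the motifs go with the calls was not tested. Base composition was high in G and C: 79.6% with 28 CG dinucleotides for Wnt6, 85.2% with 44 for Wnt4 and 70.8% with 37 for the Wnt11 window shown. The medians over all windows were 52.4% and 6. RefSeq windows matched 7 of the 10 ligand genes, with 10 windows in all.

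Levels are log2 processed signals relative to the 75th percentile of the same array, so a level of 0 is as bright as that percentile, and levels are compared between pools of one probe and never between probes. Sox9 itself was 0.59, 0.40, 0.52 and 0.47 in mutant pools 1 to 4, against 1.77, 1.90, 1.87 and 1.77 in wild-type pools 1 to 4. The groups did not overlap, and its log2 fold change was -1.33 (SE 0.07, limma adjusted p = 8.05e-04), which left 39.8% of the wild-type signal on this probe. That call ended under median centring (log2 fold change -1.73, limma adjusted p = 0.110), and the authors' series values gave a larger difference (-2.37). The mean of all filtered Sox9 probes gave a smaller one (-1.07, limma adjusted p = 0.0175). The labels used here do not say whether this probe lies in the floxed segment. All mutant pools were on slide 2 and in scan 2 and all wild-type pools on slide 1 and in scan 1, so slide and genotype cannot be told apart for any value below. Mutant replicate 2 stood apart: its median processed signal was 756 scanner units against 219 to 272 on the other 7 arrays, 85.9% of its probes were well above background against 69.0% to 73.4%, its negative controls had a median of 282 units against 69.8 to 87.4, and its median correlation with the arrays of its own group was 0.910 against 0.993 to 0.995. It was the highest or the lowest array for 76.6% of 29447 probes and for 69.2% of the 13 ligand probes (highest for 8, lowest for 1), so values without it are given beside those that move with it.

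Wnt6 and Wnt4 were higher in Sox9 mutant epithelium, Wnt6 by 2.14-fold and Wnt4 by 1.42-fold, and no ligand gene was called lower. All 10 genes passed the detection filter (well above background on at least 4 of the 8 arrays) and were tested in one limma fit with the rest of the array. Of them 2 were called higher and 0 lower at an adjusted p under 0.05. Over all 19388 features tested, 5.58% were called, 2.13% as higher and 3.45% as lower. At an unadjusted p under 0.05 there were 3 ligand genes, all of them higher, against 25.5% of all features. The median log2 fold change was 0.09 over the ligand genes and -0.00 over all features. Mutant and wild-type pools did not overlap for 3 ligand genes, Wnt6, Wnt4 and Wnt5a, all higher, against 25.8% of all features (10.6% higher and 15.2% lower). Without mutant replicate 2, 4 ligand genes were called higher (Wnt10a, Wnt4, Wnt5a and Wnt6) and 0 lower, against 17.4% of all features (6.77% higher and 10.6% lower).

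**Figure D1:**
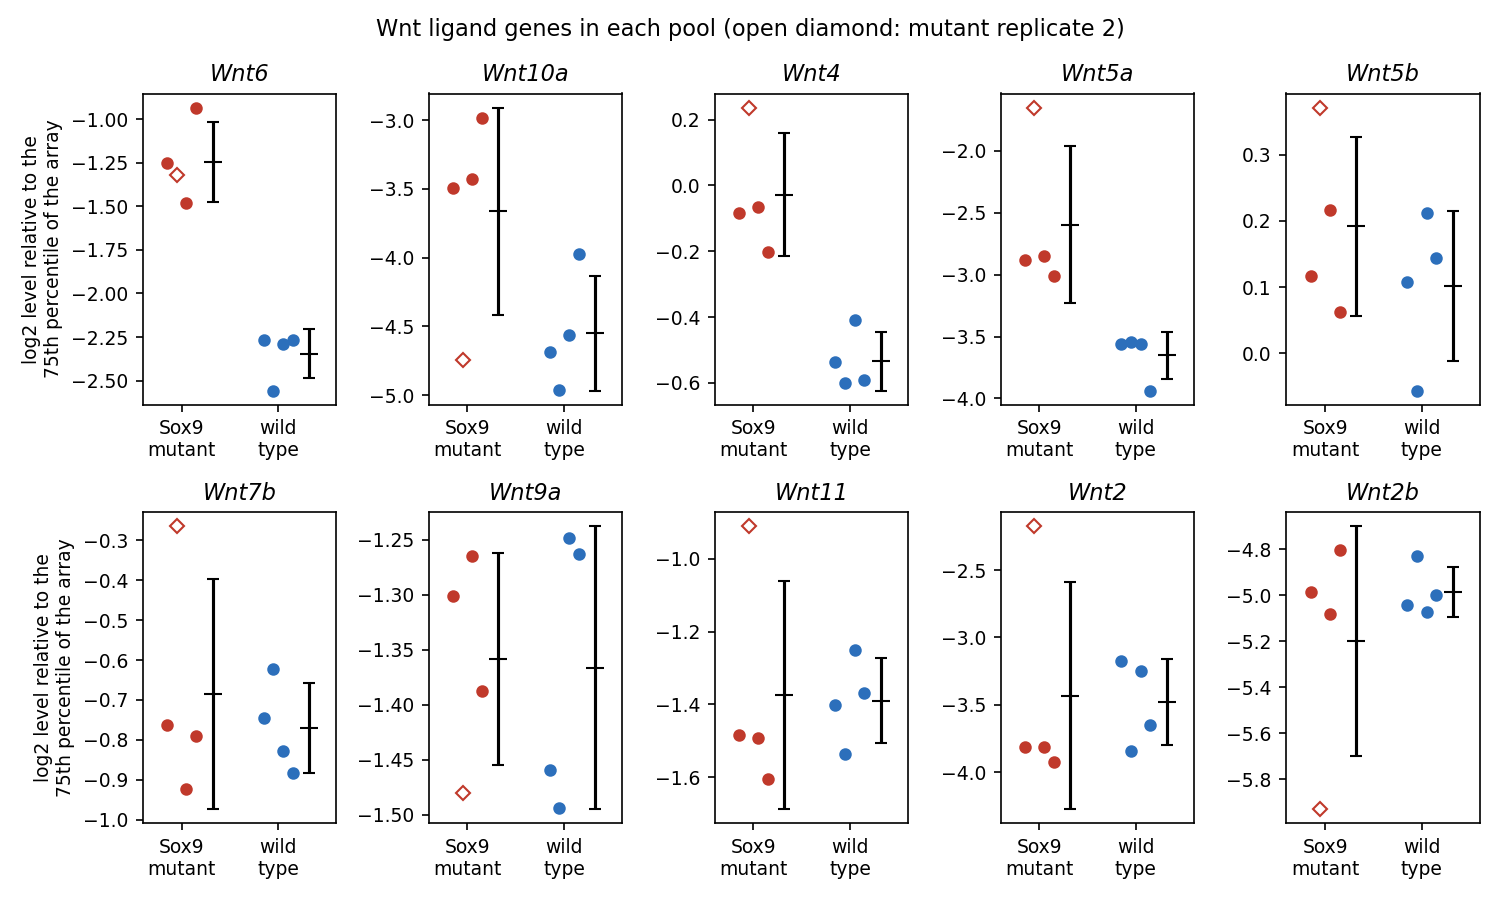
Level of each ligand gene (log2, relative to the array's 75th percentile) in the 4 Sox9 mutant pools (left, red) and the 4 wild-type pools (right, blue); bars are the mean ± SD and the open diamond is mutant replicate 2. The groups are apart for Wnt6, Wnt4 and Wnt5a, and the diamond is the outermost mutant value for every gene but Wnt6 (Wnt6 replicate 2 was -1.32, between the others).

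Wnt6, a ligand of surface and tubular epithelia, had the smallest adjusted p of the 10. Its brighter probe (mm8 chr1:74717994-74718059, plus strand) read -1.25, -1.32, -1.48 and -0.93 in mutant pools, against -2.27, -2.56, -2.29 and -2.26 in wild-type pools. Every mutant pool was above every wild-type pool, and mutant replicate 2 lay within the other mutants. The means were -1.25 ± 0.23 in mutant and -2.34 ± 0.14 in wild-type pools (SD, n = 4 each), a log2 fold change of 1.10 (95% interval 0.79 to 1.40, limma adjusted p = 0.00667). Leaving out any 1 of the 8 arrays kept the call, with a limma adjusted p of 0.00397 without mutant replicate 2. Among the other scalings and background corrections tried, the call ended under quantile normalization (log2 fold change 0.79, adjusted p = 0.133), median centring (0.70, adjusted p = 0.516) and normexp background correction (0.69, adjusted p = 0.644), with the mutant still higher in each. In this tissue sample a larger share of Wnt6-making cells and more Wnt6 RNA per cell cannot be told apart, as for every gene below.

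A second Wnt6 probe (chr1:74718094-74718153) gave a larger difference in the same direction. It read -1.33, -1.36, -1.56 and -0.98 in mutant pools, against -3.35, -3.52, -3.23 and -2.72 in wild-type pools, a 3.73-fold difference (log2 1.90, SE 0.20). With every probe as a feature of its own, 3.84% of 29462 probes were called, and 3 of the 13 ligand probes were, both Wnt6 probes (limma adjusted p = 0.00593 for the second and 0.00908 for the brighter) and that of Wnt4 (0.0486). The difference between genotypes was 0.80 log2 larger on the second probe than on the brighter one, a 1.74-fold gap (exact two-sided permutation p = 0.0286, the smallest that 4 against 4 arrays can give, and 0.0429 adjusted over the 3 genes with a pair of probes). Without mutant replicate 2 this gap was 0.79, with an exact permutation p of 0.0571.

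**Figure D2:**
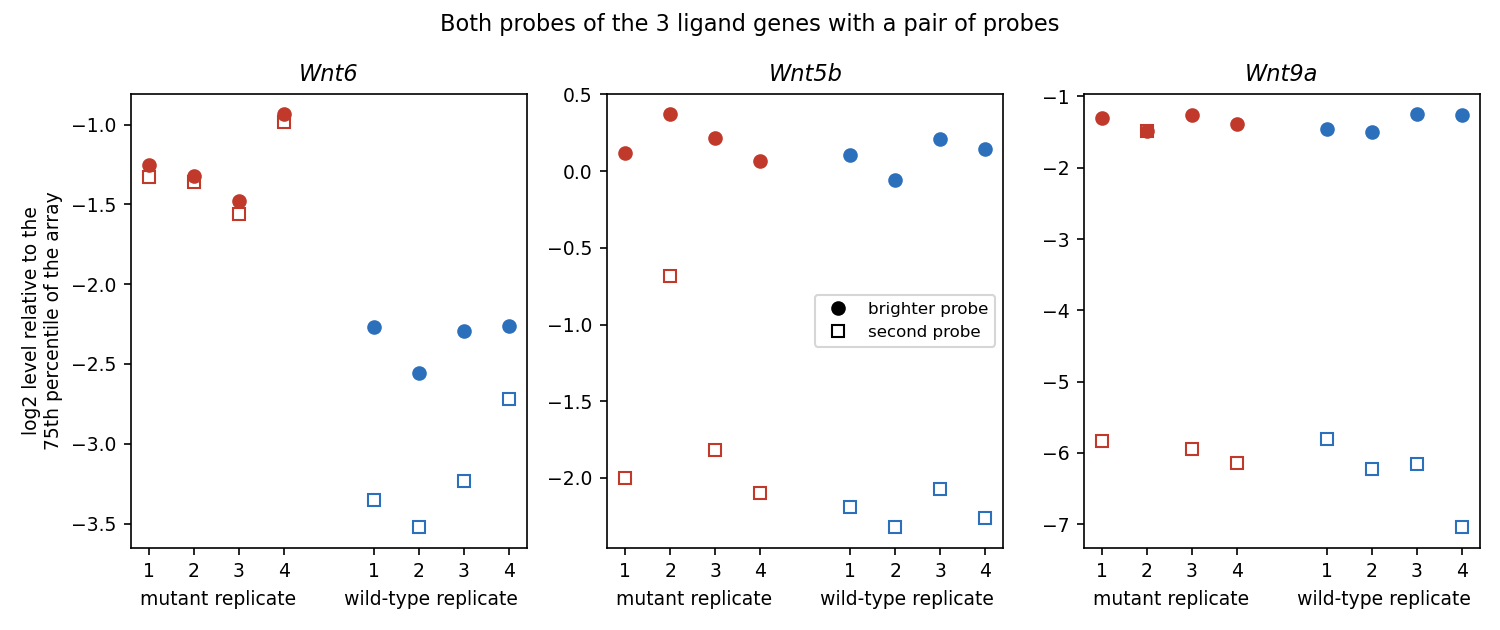
Level (log2, relative to the array's 75th percentile) of both probes of Wnt6, Wnt5b and Wnt9a in mutant (red, left) and wild-type (blue, right) pools, filled circles for the brighter probe and open squares for the second. Both Wnt6 probes separate the genotypes, and the second Wnt9a probe lies between -7.04 and -5.81 in all pools but mutant replicate 2, where it is -1.48.

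Wnt10a, a ligand known for tooth and skin appendages, lies next to Wnt6 on chromosome 1. Its probe (chr1:74737266-74737325) read -3.49, -4.74, -3.43 and -2.99 in mutant pools, against -4.69, -4.97, -4.56 and -3.97 in wild-type pools. Mutant pools 1, 3 and 4 were above all wild-type pools and mutant replicate 2 was among them, and on that array the probe was not well above background. The log2 fold change was 0.89 (95% interval -0.03 to 1.80, limma adjusted p = 0.207). Without mutant replicate 2 it was 1.25, a 2.37-fold difference, with a limma adjusted p of 0.0165. Over all arrays, quantile normalization turned the direction (-0.086) and normexp brought it to 0.048, neither of them called.

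Among the genes beside this pair, in RefSeq order on GRCm38.p6, the direction changed within a few genes. Fev, a transcription factor of serotonin neurons and of endocrine precursors in the mouse pancreas, fell by 1.15 on the log2 scale (limma adjusted p = 0.00275). Cryba2, a crystallin gene, fell by 1.48 (limma adjusted p = 0.00216). Cdk5r2, between Wnt10a and Fev, had a log2 fold change of -0.29 and was not called, nor were Rnf25 (0.08), Stk36 (-0.05), Ttll4 (0.21) and Cyp27a1 (-0.74) on the Wnt6 side or Cfap65 (-0.43) beyond Cryba2. Prkag3 and Ihh did not pass the detection filter. Fev and Cryba2 were called also without mutant replicate 2 (limma adjusted p = 0.00132 and 3.67e-04).

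**Figure D3:**
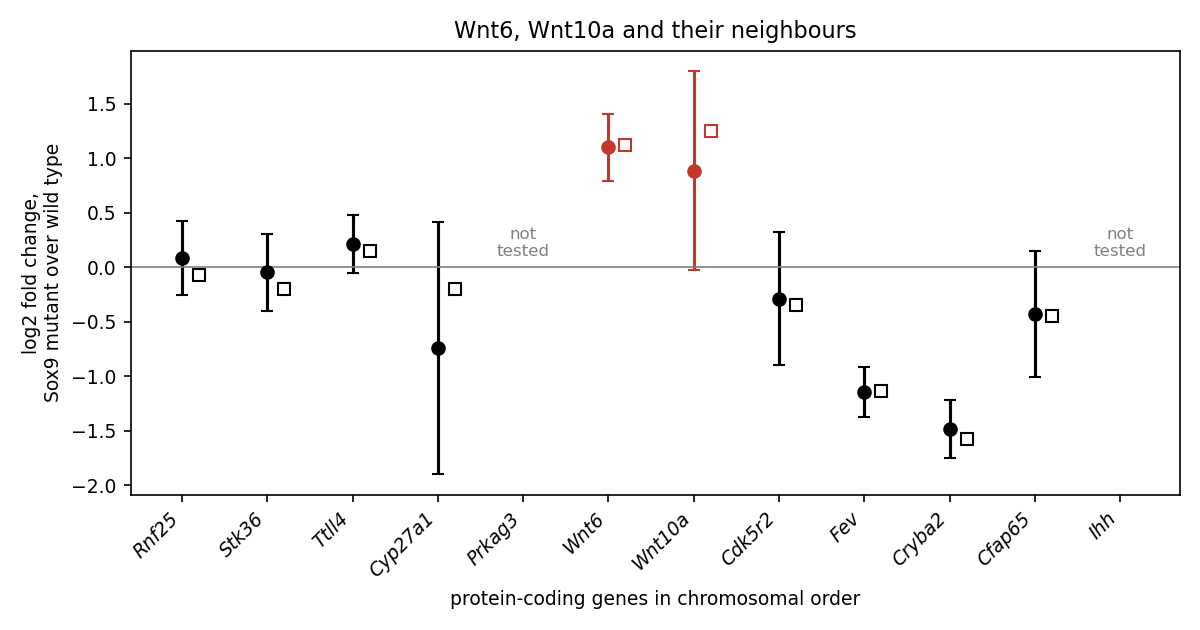
Log2 fold change (Sox9 mutant over wild type) of Wnt6, Wnt10a (red) and their neighbours (black) in chromosomal order, with 95% intervals; open squares leave out mutant replicate 2. Wnt6 and Wnt10a lie above 0 (1.10 and 0.89), Fev and Cryba2 below it (-1.15 and -1.48).

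Wnt4, a ligand required for kidney tubule formation and for the female gonad, was moderately higher. Its probe (chr4:136567851-136568419, plus strand) read -0.08, 0.24, -0.07 and -0.20 in mutant pools, against -0.54, -0.60, -0.41 and -0.59 in wild-type pools. The groups did not overlap, and the means were -0.03 ± 0.19 in mutant and -0.53 ± 0.09 in wild-type pools (SD, n = 4 each). The log2 fold change was 0.51 (95% interval 0.26 to 0.75, limma adjusted p = 0.0386), and without mutant replicate 2 it was 0.42, or 1.34-fold (limma adjusted p = 0.0106). Leaving out any other single array ended the call (limma adjusted p = 0.0547 to 0.116), with the mutant higher in each fit. So did quantile normalization (limma adjusted p = 0.0530), median centring (log2 fold change 0.11, adjusted p = 0.824), normexp (adjusted p = 0.234) and the absence of a detection filter (adjusted p = 0.0955). Of the 5 genes on either side of Wnt4, none that was tested was called (smallest limma adjusted p = 0.276, for Zbtb40, and 0.0762 without mutant replicate 2, for Epha8).

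Wnt5a, which drives outgrowth of limbs and body axis and is a mesenchymal ligand in many mouse organs, was higher in every mutant pool without passing the test. Its probe (chr14:27345426-27349388, plus strand) read -2.88, -1.65, -2.85 and -3.01 in mutant pools, against -3.56, -3.54, -3.56 and -3.94 in wild-type pools. Mutant replicate 2 was far above the other mutant pools, and the mutant SD was 0.63 against 0.19 in wild-type pools. The log2 fold change was 1.05 (95% interval 0.35 to 1.76, limma adjusted p = 0.0896). Without that array it was 0.74, or 1.67-fold, and was called (limma adjusted p = 0.00724). Over all arrays, Wnt5a was called under quantile normalization (0.63, limma adjusted p = 0.0146), in the authors' series values (0.48, 0.00995) and with array weights (0.69, 0.00308). It was not called under median centring (0.66, limma adjusted p = 0.469) or normexp (0.25, 0.997).

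Wnt5b, the close paralogue of Wnt5a, did not pass the test on either probe. Its brighter probe (chr6:119398613-119398672) read 0.12, 0.37, 0.22 and 0.06 in mutant pools, against 0.11, -0.06, 0.21 and 0.14 in wild-type pools. These values overlapped, with a log2 fold change of 0.09 (95% interval -0.13 to 0.31, limma adjusted p = 0.547). The second probe (chr6:119405921-119405980) gave 0.56 (limma adjusted p = 0.298) and, without mutant replicate 2, 0.24. Between the Wnt5b probes the genotype difference differed by 0.47 log2 (exact two-sided permutation p = 0.0286, adjusted over 3 genes 0.0429) and by 0.21 without mutant replicate 2.

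Wnt11, a ligand of ureteric bud tips that acts in cell movements, read -1.48, -0.91, -1.49 and -1.61 in mutant pools, against -1.40, -1.54, -1.25 and -1.37 in wild-type pools (chr7:98728667-98728727). The mutant values lay on both sides of the wild-type values, and mutant replicate 2 was the highest of all. Its log2 fold change was 0.02 (95% interval -0.35 to 0.39, limma adjusted p = 0.954), and -0.14 without that array.

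Wnt7b, an epithelial ligand of lung and pancreas, read -0.76, -0.26, -0.92 and -0.79 in mutant pools, against -0.75, -0.62, -0.83 and -0.88 in wild-type pools (chr15:85363831-85363890). Its log2 fold change was 0.08 (95% interval -0.26 to 0.43, limma adjusted p = 0.723). Apart from mutant replicate 2 the mutant pools lay within or just below the range of the wild-type pools.

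Wnt9a, a ligand of joints and of liver growth, had the narrowest interval around 0. Its brighter probe (chr11:59149389-59149448) read -1.30, -1.48, -1.27 and -1.39 in mutant pools, against -1.46, -1.49, -1.25 and -1.26 in wild-type pools, a log2 fold change of 0.01 (95% interval -0.20 to 0.21, limma adjusted p = 0.959). The second probe (chr11:59147204-59147263) was well above background on all 4 mutant arrays and on 1 wild-type array, and read -5.83, -1.48, -5.94 and -6.15 in mutant pools, against -5.81, -6.23, -6.15 and -7.04 in wild-type pools. Its log2 fold change of 1.46 (limma adjusted p = 0.405) came down to 0.34 without mutant replicate 2.

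Wnt2 and Wnt2b, mesenchymal ligands that together specify the mouse lung, did not pass the test. Wnt2 (chr6:17939284-17939343) read -3.81, -2.17, -3.82 and -3.93 in mutant pools, against -3.18, -3.85, -3.25 and -3.65 in wild-type pools. Its log2 fold change was 0.05 (95% interval -0.91 to 1.003, limma adjusted p = 0.946) and turned to -0.37 without mutant replicate 2 (limma adjusted p = 0.163). Wnt2b (chr3:105073969-105074028) read -4.99, -5.93, -5.08 and -4.80 in mutant pools, against -5.04, -4.83, -5.07 and -5.00 in wild-type pools. Its log2 fold change was -0.21 (limma adjusted p = 0.573) and 0.03 without mutant replicate 2, the array on which this probe was not well above background.

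**Figure D4:**
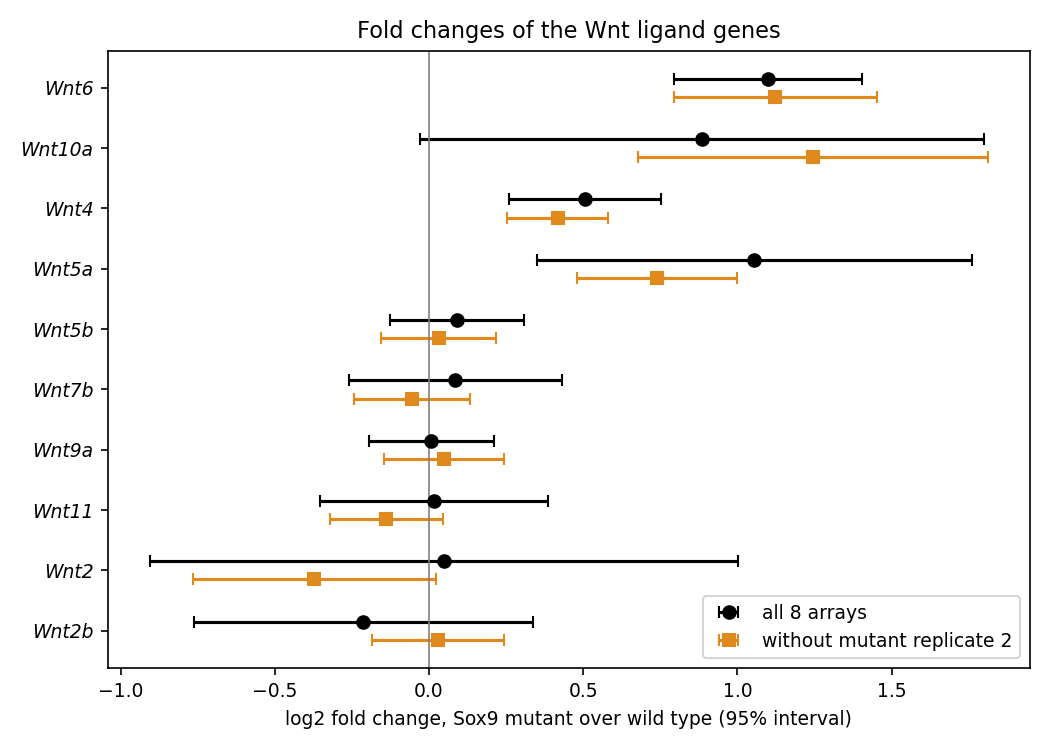
Log2 fold change (Sox9 mutant over wild type) of the 10 ligand genes with 95% intervals, over all 8 arrays (black circles) and without mutant replicate 2 (orange squares). Wnt6, Wnt4 and Wnt5a have intervals above 0 both ways, Wnt10a without that array, and the other 6 include 0.

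The features whose pattern over the 8 arrays was most like that of a called ligand were chosen by the smallest root-mean-square difference after centring each on its mean. For Wnt6 these were Plaur, Cd38, Gem, Itgb6 and Cldn8, at 0.146 to 0.184 log2. For Wnt4 they were Cd52, Daam2, Ppox, Gpr4 and Eif4e3, at 0.0537 to 0.0694 log2. Likeness over these arrays is a description, since all of them share the 8 libraries and the slides.

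Of the other 9 Wnt ligand genes, 4 passed the detection filter and 0 were called by limma, with 2 at an unadjusted p under 0.05. Wnt1, a ligand of the midbrain and neural crest, had a log2 fold change of -0.98 (limma adjusted p = 0.0707, and 0.0306 without mutant replicate 2, where it was -0.76). Wnt9b, a kidney tubule inducer, had 0.60 (0.127), Wnt7a 1.42 (0.321) and Wnt3 0.16 (0.917), the numbers in brackets being limma adjusted p-values. Wnt9b, Wnt7a and Wnt3 were highest on mutant replicate 2, where Wnt9b read -4.59 against -5.49 to -5.07 on the other mutants. Without that array Wnt7a had 0.51 (limma adjusted p = 0.144) and Wnt3 turned to -0.80 (0.0611). Wnt3a was well above background on no array, Wnt8a, Wnt8b and Wnt16 each on 1 mutant array and no wild-type array, and Wnt10b on 3 mutant arrays and no wild-type array. These 4 probes were far brighter on mutant replicate 2, the array with raised background: Wnt8a read -2.23 there against -8.56 to -7.20 on the other mutants, Wnt8b -2.21 against -8.06 to -7.65, Wnt16 -2.55 against -8.45 to -6.81 and Wnt10b -2.29 against -6.60 to -6.24. Wnt10b read -8.25, -8.25, -8.68 and -8.93 in wild-type pools, below every mutant pool. It did not pass the detection filter, so this difference was not tested.

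In the rest of the pathway, 77 of 85 listed genes were tested, with the other 9 ligands counted among the 85. Of these 2 were called higher and 5 lower, a share set against 2.13% and 3.45% of all features, and without mutant replicate 2 the counts were 3 and 8, beside 6.77% and 10.6% of all features in that fit. The secretion genes were not called: Porcn had a log2 fold change of 0.30 (limma adjusted p = 0.356; 0.098 log2 without mutant replicate 2) and Wls 0.07 (0.596), with neither at an unadjusted p under 0.05.

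Among 10 Frizzled receptors 1 was lower and 0 higher, with 4 at an unadjusted p under 0.05 and a median log2 fold change of -0.05. Fzd9 read -1.82, -2.19, -1.75 and -1.77 in mutant pools, against -1.16, -1.09, -1.14 and -0.87 in wild-type pools, and fell by 0.82 on the log2 scale (limma adjusted p = 0.0128). Among 8 co-receptors and other receptors 1 was lower, with a list median of 0.17 (-0.0016 without mutant replicate 2). This was Lrp6, whose brighter probe fell by 1.41 (limma adjusted p = 0.0265, and 0.0322 with every probe as its own feature). In that probe fit its second probe was higher by 0.42 without being called (limma adjusted p = 0.0924). Without mutant replicate 2 the second probe was called (0.32, limma adjusted p = 0.0237), so the direction for Lrp6 is not settled.

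Extracellular antagonists bind Wnts or their receptors, and 12 of 14 were tested, 1 of them called lower and 0 higher (median log2 fold change -0.10). Without mutant replicate 2, 2 were lower and the median was -0.30, the second being Frzb, another secreted Frizzled-like protein (-0.91 with limma adjusted p = 0.0631 over all arrays, -1.13 with 0.00243 without that array). Sfrp4, a secreted Frizzled-like protein, fell by 1.52 (limma adjusted p = 0.0486) and was well above background on 2 mutant and 4 wild-type arrays. With every probe as its own feature its limma adjusted p was 0.0586. Of the R-spondin module, which sets the amount of Frizzled at the surface, 8 of 9 genes were tested and 0 called, with 0 at an unadjusted p under 0.05; Rnf43 had a log2 fold change of 0.23 and Rspo3 0.79, and without mutant replicate 2 these were 0.32 and 0.26. Of 14 intracellular transducers 0 were called and 1 had an unadjusted p under 0.05, Tcf7l1, a TCF factor, at 0.46 (limma adjusted p = 0.107), followed by Axin1 at 0.22 (0.260), which was 0.11 without mutant replicate 2.

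Among 10 Wnt response genes 1 was higher and 2 lower, with a median log2 fold change of 0.04. Nkd2, an inhibitor that binds Dishevelled, rose by 0.40 (limma adjusted p = 0.0440). With every probe as its own feature this probe was not called (limma adjusted p = 0.0558), nor was a second Nkd2 probe (1.41, 0.238). Ccnd1, a G1 cyclin with many inputs beside Wnt, fell by 0.51 (limma adjusted p = 0.0211), and Ascl2, an intestinal stem cell factor, fell by 1.11 (limma adjusted p = 0.0234). Axin2, the most used readout of beta-catenin signalling, had 0.24 (limma adjusted p = 0.230) and Lef1 -0.29 (0.119), so neither passed the test. Sp5, in the same list, had 0.60 (limma adjusted p = 0.0861) and was not called, although every mutant pool was above every wild-type pool. In the planar polarity branch 1 of 9 genes was called, Daam2, a formin that binds Dishevelled, at 0.49 (limma adjusted p = 0.0418). With every probe as its own feature over all arrays, no Daam2 probe was called, this one having a limma adjusted p of 0.0524. Without mutant replicate 2, Prickle2, a cytoplasmic polarity protein, was called higher as well (0.33, limma adjusted p = 0.0237) and Celsr3, a polarity cadherin, lower (-0.75, 0.0118).

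**Figure D5:**
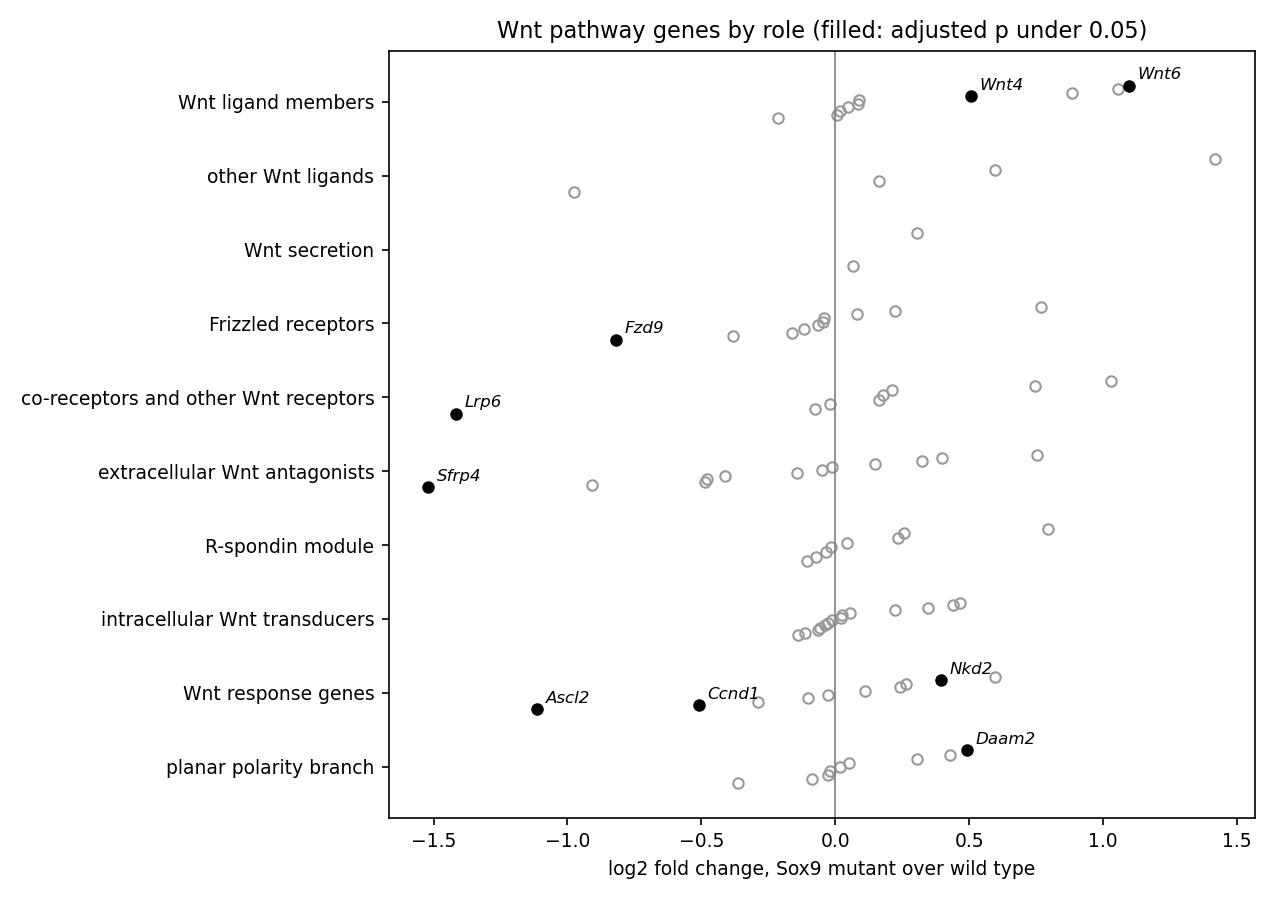
Log2 fold change (Sox9 mutant over wild type) of each tested Wnt pathway gene, by role; filled points are called at a limma adjusted p under 0.05 and labelled. Called genes lie on both sides of 0, with Wnt6, Wnt4, Nkd2 and Daam2 above it and Fzd9, Lrp6, Sfrp4, Ccnd1 and Ascl2 below.

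Markers of the other cells that the dissection could hold were measured beside the ligands, as the sum over a list of linear signals relative to the array's 75th percentile. Such a sum mostly follows the brightest probes of its list, Krt8 and Krt18 for epithelium and chiefly the collagen genes for mesenchyme. It is therefore compared only between pools and is not a measure of cell content. The 7 epithelial markers were well above background on all 8 arrays and summed to 177 to 245 in mutant and 180 to 192 in wild-type pools, with Pdx1, a progenitor and beta-cell factor, lower by 1.05 log2 (limma adjusted p = 0.00170). The keratins Krt19, Krt18 and Krt8 had log2 fold changes of 0.35, 0.31 and 0.21 and were not called, but without mutant replicate 2, which had the lowest epithelial sum, they were called higher (0.47, 0.41 and 0.31, limma adjusted p = 0.00639, 0.0322 and 0.0128). The remaining epithelial markers, Epcam (-0.05), Cldn7 (0.04) and Cdh1 (-0.01), were not called with or without that array. All 16 mesenchyme markers were well above background on all arrays as well. They summed to 311 to 406 in mutant and 389 to 464 in wild-type pools, with Nkx3-2 (log2 fold change 0.57) and Barx1 (0.27) called higher and 0 lower, and a list median of -0.08. Fgf10 (-0.57) and Lum (-0.46) were not called, although their groups did not overlap. Without mutant replicate 2, which had the lowest mesenchyme sum, Twist1 was called higher as well (0.52), and Fgf10 (-0.49) and Lum (-0.36) lower. Sums were 5.62 to 5.80 in mutant and 5.38 to 6.39 in wild-type pools for 4 mesothelium markers, and 11.4 to 14.8 and 13.1 to 14.7 for 5 endothelium markers, with 0 called by limma in either list (1 and 0 at an unadjusted p under 0.05). Neuron and Schwann cell markers summed to 2.32 to 3.78 in mutant and 4.83 to 6.80 in wild-type pools, with Sox10 and S100b lower, and blood cell markers to 3.16 to 5.17 and 1.86 to 3.15, with Hba-x higher. The other blood cell markers, Hbb-bh1 (log2 fold change 1.34), Cd68 (0.03) and Ptprc (-0.06), were not called. The part of these cells in the ligand differences was not tested.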

How the data were processed

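RNA from 4 Sox9 mutant and 4 wild-type pools of mouse pancreatic epithelium was hybridised, about 250 ng per pool labelled with Cy3, to one-colour Agilent arrays. Per the file headers, the deposited scanner files come from Feature Extraction 9.5.3.1 and hold an intensity in linear units, background-subtracted within each array and not normalized between arrays. The submitters' processing notes name limma, with steps not given in the sources used here; the deposited series table, an intensity on a linear scale, was used only as an alternative. Probe positions are those of the files (mm8).

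Here the log2 of the deposited processed intensity was taken, outlier-marked spots were dropped, the spots of each probe averaged and each array's 75th percentile was subtracted. Probes well above background on at least 4 of 8 arrays were kept, 29462 of 41174, without regard to genotype. The probe of highest mean stood for its gene, which left 19388 features. Names came from a RefSeq table of GRCm38.p6, matched by accession for 24490 probes, symbol for 6234 and synonym for 2387, with 8063 unmatched. A limma 3.58.1 model (lmFit, eBayes, two-sided, Benjamini-Hochberg over all features) on genotype alone was fitted (R 4.3.3, with data.table in version 1.17.8) and tested on simulated data; called means an adjusted p under 0.05. The number of arrays limits the precision. Probe pairs were compared by exact permutation.

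The members and gene lists were chosen with earlier results of these data known. The text names every ligand probe, Sox9, up to 4 called genes of each pathway list by adjusted p or 2 of smallest p where none was called, the 5 features most like each called ligand, and neighbouring genes; markers, and pathway genes whose call changes without mutant replicate 2, were chosen after their values were seen. Axin2, Lef1 and Sp5 were named outside this naming rule. Alternatives covered normalization, background correction (normexp, offset 50), filter, probe choice, the series table, array weights, a replicate block and leaving out each array.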

Additional observations from a re-analysis of the deposited data

Results flagged for a closer look

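Within each genotype, each of the 13 ligand probes was searched for an array whose gap to the nearest other array exceeded Dixon's critical share of the range. Chance gives about 1 in 20 such groups, and 5 of 26 were found, 3 of them on mutant replicate 2. Wnt2 was -2.17 on mutant replicate 2, against -3.93 to -3.81 on the other mutant arrays. Wnt5a was -1.65 on that array, against -3.01 to -2.85 on the other mutants. The second Wnt9a probe was -1.48 there, against -6.15 to -5.83. Among wild-type arrays, Wnt5a was -3.94 on replicate 4, against -3.56 to -3.54 on the others, and the brighter Wnt6 probe was -2.56 on replicate 2, against -2.29 to -2.26.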

How the results depend on the processing

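Of 168 gene values under alternatives for the ligand genes, 115 kept direction and side of the threshold, 16 lost the call, 6 gained it and 31 turned direction, none of which was called after turning. The main counts were 1081 features, 2 ligand genes, 7 other pathway genes and 3 ligand probes. In that order, median centring gave 45, 0, 0 and 0 (limma, with 1755, 1, 9 and 2 at an unadjusted p under 0.05), normexp 80 (17 higher and 63 lower, against 412 and 669), 0, 1 and 0 (1638, 1, 7 and 2 unadjusted), and array weights 4686, 4, 21 and 5. Without a detection filter 397 features, 1 ligand gene and 1 pathway gene were called, the mean of a gene's probes gave 716 features and 4 pathway genes, the authors' series values 2181 features, and quantile normalization 1 ligand gene (Wnt5a, adjusted p = 0.0146) and 1 pathway gene. Leaving out 1 array gave 357 to 3364 features, 1 to 4 ligand genes, 1 to 11 pathway genes and 2 to 5 ligand probes, the highest each time without mutant replicate 2, the lowest feature count without wild-type replicate 1.

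With the replicate number as a block the counts were 145, 0, 0 and 1 (4 ligand genes and 20 pathway genes at an unadjusted p under 0.05), with Wnt6 at an adjusted p of 0.0516. Same-numbered arrays deviated together with correlations of 0.02, -0.02, 0.05 and 0.13, so the numbers were not taken as pairs.

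Values that turned direction were -0.47 for Wnt2, -0.27 for Wnt9a, -0.086 for Wnt10a and -0.12 for Wnt11 under quantile normalization; -0.35 for Wnt2, -0.31 for Wnt5b, -0.31 for Wnt7b, -0.39 for Wnt9a and -0.38 for Wnt11 under median centring; -0.40, -0.019, -0.13 and -0.10 for Wnt2, Wnt7b, Wnt9a and Wnt11 under normexp; -0.22, -0.083 and -0.041 for Wnt2, Wnt9a and Wnt11 in the series table; and -0.32, 0.00099, -0.10 and -0.12 for Wnt2, Wnt2b, Wnt7b and Wnt11 with array weights. Leaving out 1 array gave -0.37 to 0.21 for Wnt2, -0.35 to 0.030 for Wnt2b, -0.055 to 0.16 for Wnt7b, -0.035 to 0.048 for Wnt9a and -0.14 to 0.094 for Wnt11. Median centring subtracts another constant from each array, which shifts the log2 fold changes alike, and the turns under it are this shift. The median of all features moved to -0.40. Relative to it Wnt6 was at 1.10 and Wnt4 at 0.51, as in the main fit. That sameness follows from the arithmetic and is no test of the differences. The cause of the other changes was not tested.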
